A study of Mus musculus with 6 samples.

Results

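Tumour necrosis factor (TNF), its receptors and a set of TNF-linked response genes were followed in macrophages of the injured mouse sciatic nerve. They are 10 of the 24822 gene symbols used, taken by exact symbol from the deposited count and FPKM tables: the ligands Tnf, Tnfsf9, Tnfsf12 and Tnfsf13b, the receptors Tnfrsf1a and Tnfrsf1b, the adaptor Traf1, and Tnfaip2, Tnfaip8 and Tnfaip8l2. Macrophages that carried CD64 and CD11b and lacked SiglecF and Ly6G were sorted by reporter colour. Recruited macrophages were the ECFP+ cells and resident macrophages the EGFP+ cells, both from the nerve on the injured side 14 days after CCI, with 3 libraries in each group. All mice were C57BL/6 and of the genotype Macblue x Cx3cr1egfp/+, so both groups came from animals in which EGFP replaces 1 copy of Cx3cr1, the fractalkine receptor gene. In Macblue mice ECFP is driven by a modified Csf1r promoter that is active chiefly in monocytes and their recent progeny, so the reporter marks origin only as far as that promoter does. Each library pooled nerves of 3 mice and about 400 cells, and the labels give no age beyond the day after injury.

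TNF is a cytokine made largely by activated macrophages. It is released from the cell surface by the protease ADAM17 and acts through Tnfrsf1a, a death-domain receptor found on most cell types, and Tnfrsf1b, a receptor largely of immune and endothelial cells. Both receptors gather TRAF adaptors and switch on NF-kappaB, which in turn induces genes such as Traf1 and Tnfaip2. In an injured nerve, TNF made by Schwann cells and macrophages is known as an early signal of Wallerian degeneration.

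The libraries held 16688848 to 27547336 expected counts, and 11436 to 13069 genes had at least 1 count. The macrophage markers Csf1r, Fcgr1, Adgre1, Cd68, Itgam and Lyz2 were present in every library, and the 10 markers of this kind summed to 38785 to 48688 CPM in recruited and 39923 to 42588 CPM in resident libraries. CPM is the count scaled to a fixed library size after TMM correction. Of these 10 markers, Aif1 passed the threshold, lower in recruited libraries (edgeR adjusted p = 0.0493). Mast cell markers summed to at most 5.38 CPM and endothelial markers to at most 17.3 CPM in any library, with Cpa3, Fcer1a, Emcn and Tie1 at 0 in all 6. Neutrophil markers summed to 167 to 282 CPM in recruited and 102 to 135 CPM in resident libraries, with Ly6g and Ngp at 0. Dendritic cell markers, led by Cd209a and Mgl2, summed to 101 to 240.2 CPM in recruited and 158 to 841 CPM in resident libraries. Resident libraries varied more among themselves, with a biological coefficient of variation of 0.613, against 0.287 for recruited libraries.

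Recruited macrophages carried about double the Tnfaip2 transcript of resident macrophages, and more transcript of both TNF receptors on average. Recruited cells carried less Tnfsf13b, the B cell survival factor BAFF. Tnf itself overlapped between the groups, and so did the other ligands, the adaptor and the remaining response genes. Log2 differences are recruited minus resident, so a positive value is a gene higher in recruited macrophages. The set was chosen by symbol with this contrast known, and Tnfaip2 was selected on its adjusted p and log2 difference here, so the differences are given as a description, and the adjusted p of Tnfaip2 only as a value it was selected on.

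All 10 genes passed the filter on low counts, 6 with a positive and 4 with a negative log2 difference and a median of 0.05, beside a median of 0.01 over all 11354 tested genes. Recruited libraries lay wholly above resident ones for 2 of the 10, Tnfaip2 and Tnfrsf1a, and wholly below them for 1, Tnfsf13b. Over all tested genes these patterns made up 12.2% and 12.6%. An absolute log2 difference under 0.1 was found for 4 of the 10 and one over 1 for 2, beside 15.1% and 12.6% of all tested genes. In bulk libraries such as these, fewer cells of a type and less RNA per cell cannot be told apart.

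**Figure D1:**
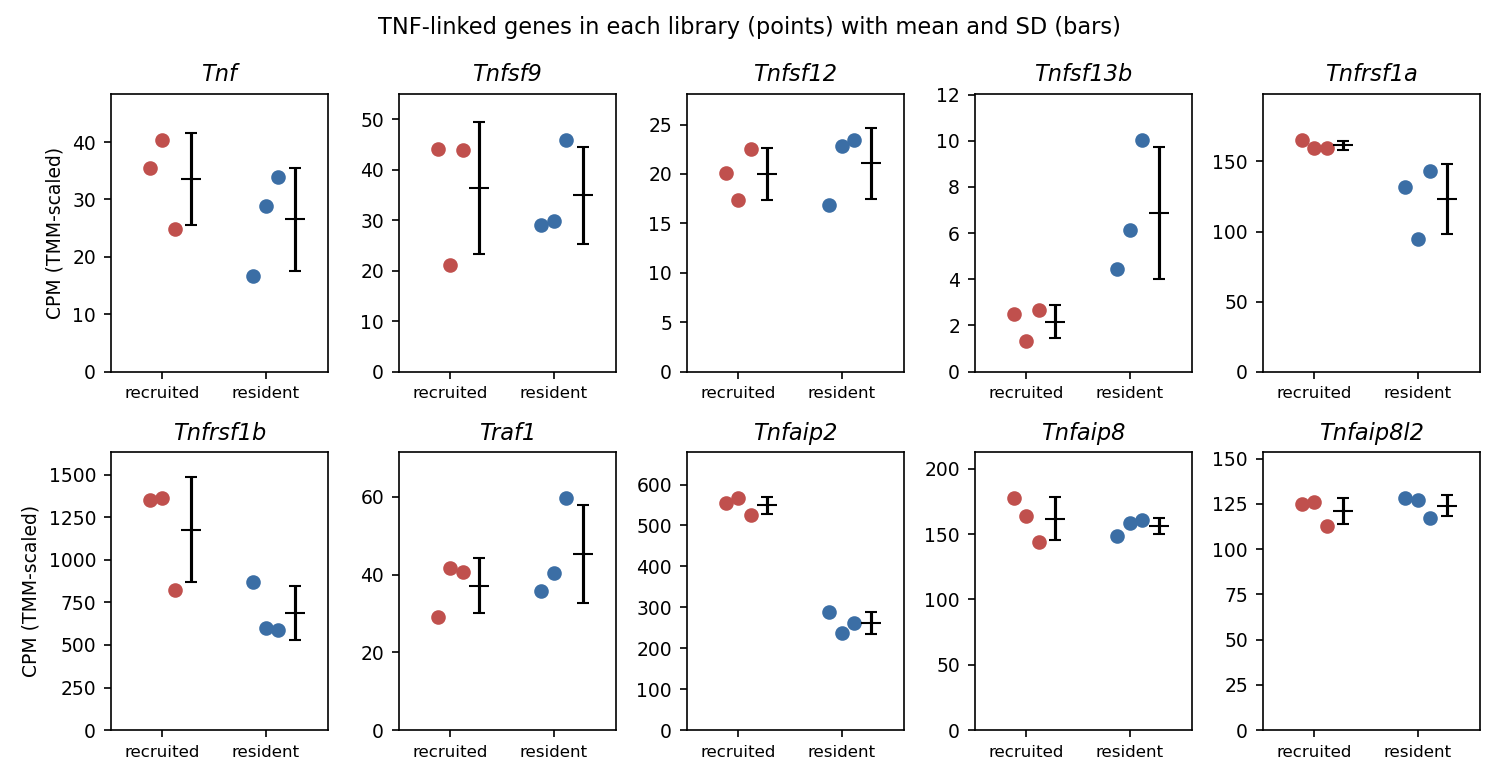
CPM of each TNF-linked gene (y axis, from 0) in the 3 recruited (ECFP+) and 3 resident (EGFP+) libraries. Points are libraries in replicate order, and bars give the mean and SD. Tnfaip2 lies between 526 and 566 CPM in recruited libraries and between 236 and 288 CPM in resident ones, while Tnf, Tnfsf9 and Tnfsf12 overlap.

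Among the ligands, Tnf was read at 35.5, 40.4 and 24.8 CPM in recruited libraries and at 16.6, 28.9 and 34.0 CPM in resident libraries. The groups overlapped, with recruited replicate 3 below resident replicates 2 and 3. The means were 33.6 ± 7.95 CPM in recruited and 26.5 ± 8.93 CPM in resident macrophages (SD, n = 3 each), a log2 difference of 0.34 ± 0.31 (SE). It was 0.10 without resident replicate 1 and 0.57 without resident replicate 3. Tnf lies on chromosome 17 at 35199367 to 35202007 (mm10), with no other RefSeq gene in its span. Its counts were 503 to 846 in recruited and 476 to 745 in resident libraries, so it was well read in every library.

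The Tnf messenger is short-lived because proteins such as ZFP36 bind AUUUA pentamers in its 3′ untranslated region. The densest 30 bases of such pentamers in the GENCODE M21 Tnf transcript are shown because this element bears on the stability of the transcript counted above. It lies at chr17:35199676-35199705 on the minus strand (GRCm38), and ATTTA pentamers are in capitals.
Tnf pentamer site: ATTTAttATTTATTTAttATTTATTTAttt
These bases hold 5 pentamers, searched as ATTTA on the transcript strand with overlaps allowed. As many in some 30-base stretch were found in the longest transcript of 61 of 21877 protein-coding genes, or 0.279%. Zfp36, the decay factor, was among the more abundant transcripts, at 566 ± 99.5 CPM in recruited and 644 ± 125 CPM in resident macrophages (SD, n = 3 each; log2 difference -0.19 ± 0.18 SE, edgeR adjusted p = 0.666).

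Tnfsf9, which encodes 4-1BB ligand, a costimulator of T cells, was read at 44.1, 21.2 and 43.8 CPM in recruited libraries and at 29.0, 29.8 and 45.9 CPM in resident libraries. Recruited replicate 2 was the lowest of the 6 and resident replicate 3 the highest. The log2 difference was 0.06 ± 0.33 (SE), and leaving out single libraries moved it from -0.10 to 0.34. The gene Gm11110 overlaps its span on chromosome 17.

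Tnfsf12, which encodes TWEAK, the ligand of the receptor Fn14, was read at 20.1, 17.3 and 22.6 CPM in recruited libraries and at 16.9, 22.8 and 23.5 CPM in resident libraries. The groups overlapped fully, with a log2 difference of -0.08 ± 0.25 (SE). Tnfsf12 shares its span on chromosome 11 with the read-through gene Tnfsfm13 and with Tnfsf13os. Its expected counts, such as 336.34 in recruited replicate 1, are not whole. RSEM divides reads that match several genes, and the value depends on that division.

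Tnfsf13b, which encodes BAFF, was the ligand with the widest gap. It was read at 2.51, 1.34 and 2.67 CPM in recruited libraries and at 4.44, 6.12 and 10.04 CPM in resident libraries. Every recruited library was below every resident one, and resident replicate 3 stood highest. The means were 2.17 ± 0.726 CPM in recruited and 6.87 ± 2.87 CPM in resident macrophages (SD, n = 3 each), 3.16-fold higher in resident cells (log2 difference -1.66 ± 0.60 SE). These are low values, from 28 to 54 counts in recruited and 119 to 220 counts in resident libraries, with a log2 difference of -1.27 once resident replicate 3 was left out.

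Of the dendritic cell markers, Cd209a, Mgl2 and Ccr7 were, like Tnfsf13b, highest in resident replicate 3. Flt3 and Zbtb46 were lowest there within the resident group. Cd209a was read at 107, 169 and 56.0 CPM in recruited libraries and at 103, 314 and 588 CPM in resident libraries. Mgl2 was read at 25.0, 41.3 and 32.5 CPM in recruited and at 41.2, 144 and 234 CPM in resident libraries. The groups overlapped for both genes. Flt3 was read at 2.93, 14.1 and 2.67 CPM in recruited and at 9.82, 9.26 and 5.34 CPM in resident libraries, and Zbtb46, Ccr7, Xcr1 and Itgae were at most 14.8 CPM in any library. Fibroblast markers also summed higher in resident libraries, at 5.68 to 12.2 CPM in recruited and 22.4 to 55.2 CPM in resident libraries. The T and NK cell list summed to 16.4 to 28.1 CPM in recruited and 37.7 to 58.5 CPM in resident libraries, nearly all of it Cd2, with 8 of its 10 genes under 1 CPM in every library and Cd8a, Nkg7 and Ncr1 at 0. The part of these cells in the Tnfsf13b difference was not tested.

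The second of 2 RefSeq promoter windows of Tnfsf13b is shown because it holds an AP-1 motif. It lies at chr8:10006383-10006682 on the plus strand (GRCm38.p6) and runs from 250 bases before the start site to 50 bases from it onward. Capitals mark the AP-1 motif and, at base 251, the start site.
Tnfsf13b promoter: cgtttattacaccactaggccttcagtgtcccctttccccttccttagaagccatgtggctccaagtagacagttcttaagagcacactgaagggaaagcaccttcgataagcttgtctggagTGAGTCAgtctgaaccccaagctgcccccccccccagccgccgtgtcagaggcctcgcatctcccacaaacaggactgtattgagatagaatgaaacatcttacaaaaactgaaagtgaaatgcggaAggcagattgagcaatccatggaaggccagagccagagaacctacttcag
The motif, searched as TGANTCA on both strands, begins 127 bases before this start site. The RefSeq span of Tnfsf13b begins at 10006229, before this window, so the motif lies inside the gene span and not upstream of the gene. The other window has the same single site 39 bases after its own start site. It was present in 7.81% of 32851 promoter windows of the same length. Of the 10 genes, 7 matched a window by symbol, and among their 8 windows no other gene's window held the motif.

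The receptors were higher in recruited macrophages on average. Tnfrsf1b, which encodes TNF receptor 2, was read at 1349, 1360.02 and 823 CPM in recruited libraries and at 871, 602 and 589.98 CPM in resident libraries. The groups overlapped only through recruited replicate 3, which lay below resident replicate 1. The means were 1177 ± 307 CPM in recruited and 688 ± 159 CPM in resident macrophages (SD, n = 3 each; log2 difference 0.78 ± 0.23 SE), with 0.98 once recruited replicate 3 was left out.

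Tnfrsf1a, which encodes TNF receptor 1, was read at 165, 159.8 and 159.8 CPM in recruited libraries and at 132, 94.9 and 143 CPM in resident libraries. The recruited libraries were nearly equal and all above the resident ones, of which replicate 2 was lowest. The log2 difference was 0.39 ± 0.17 (SE), and 0.23 without resident replicate 2. On the log2 scale the recruited libraries had an SD of 0.03, beside a median of 0.25 over all tested genes, whatever their level.

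Levels of different genes can be compared only per transcript length, as FPKM. Tnfrsf1b averaged 249 ± 63.1 FPKM in recruited and 146 ± 39.4 FPKM in resident macrophages, and Tnfrsf1a 82.3 ± 2.22 FPKM in recruited and 62.4 ± 13.4 FPKM in resident macrophages (SD, n = 3 each). Tnfrsf1b was above Tnfrsf1a in 6 of 6 libraries, with ratios of 3.39, 3.53 and 2.14 in recruited and 2.75, 2.64 and 1.72 in resident libraries. The mean ratio was 2.62 (log2 ratio 1.39 ± 0.39 SD, n = 6; exact two-sided sign-flip permutation test p = 0.0312, and 0.0312 adjusted over 4 pairs, the smallest that 6 libraries allow). This comparison within libraries does not use the difference between the groups. The pairs were chosen with earlier results of these data known, so the p values of the pairs are given only as a description.

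Traf1, an NF-kappaB-induced adaptor that joins Tnfrsf1b through TRAF2, was read at 29.1, 41.8 and 40.6 CPM in recruited libraries and at 35.9, 40.5 and 59.6 CPM in resident libraries. The groups overlapped, with recruited replicate 1 lowest and resident replicate 3 highest. The log2 difference was -0.29 ± 0.25 (SE), and -0.03 without resident replicate 3. The gene Gm52552 overlaps Traf1 on chromosome 2.

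Tnfaip2, also known as M-Sec, encodes an exocyst-like protein that helps macrophages form tunnelling nanotubes. It was read at 554, 566 and 526 CPM in recruited libraries and at 288, 236 and 261 CPM in resident libraries. Every recruited library was above every resident one, and the lowest recruited library lay well over the highest resident one. The means were 549 ± 20.3 CPM in recruited and 262 ± 25.9 CPM in resident macrophages (SD, n = 3 each), 2.10-fold higher in recruited cells (log2 difference 1.07 ± 0.13 SE). The log2 SD was 0.05 in recruited and 0.14 in resident libraries, beside medians of 0.25 and 0.41 over all tested genes, whatever their level. An adjusted p depends on the spread within groups, so a small SD goes with the selection of Tnfaip2 and is only a description.

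Tnfaip2 was the only one of the 10 genes past an adjusted p of 0.05 in edgeR over all genes, the value it was chosen for, at 0.0184. That call was made for 7 genes in this direction, 0.0617% of those tested, and for 29 genes, 0.255%, in the other. Without resident replicate 1 the numbers were 254 and 326, or 2.19% and 2.81%. Leaving out single libraries gave log2 differences of 1.00 to 1.15 and adjusted p of 0.0205 to 0.123, under 0.05 only without resident replicate 1. Endothelial cells also carry Tnfaip2, and their markers summed to 5.25 to 16.2 CPM in recruited and 13.2 to 17.3 CPM in resident libraries, with Emcn and Tie1 at 0. Of the neutrophil markers, Mmp8 alone stood apart between the groups, at 89.0, 63.1 and 33.4 CPM in recruited and 8.63, 2.98 and 0.0456 CPM in resident libraries (edgeR adjusted p = 0.138). S100a8, S100a9 and Csf3r overlapped between the groups, and 5 of the 10 were under 1 CPM in every library. Schwann cell markers, mostly Pmp22 and Mbp, summed to 239 to 531 CPM in recruited and 233 to 294 CPM in resident libraries, with Sox10 and Ncam1 at 0. The part of such cells in the Tnfaip2 difference was not tested.

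**Figure D2:**
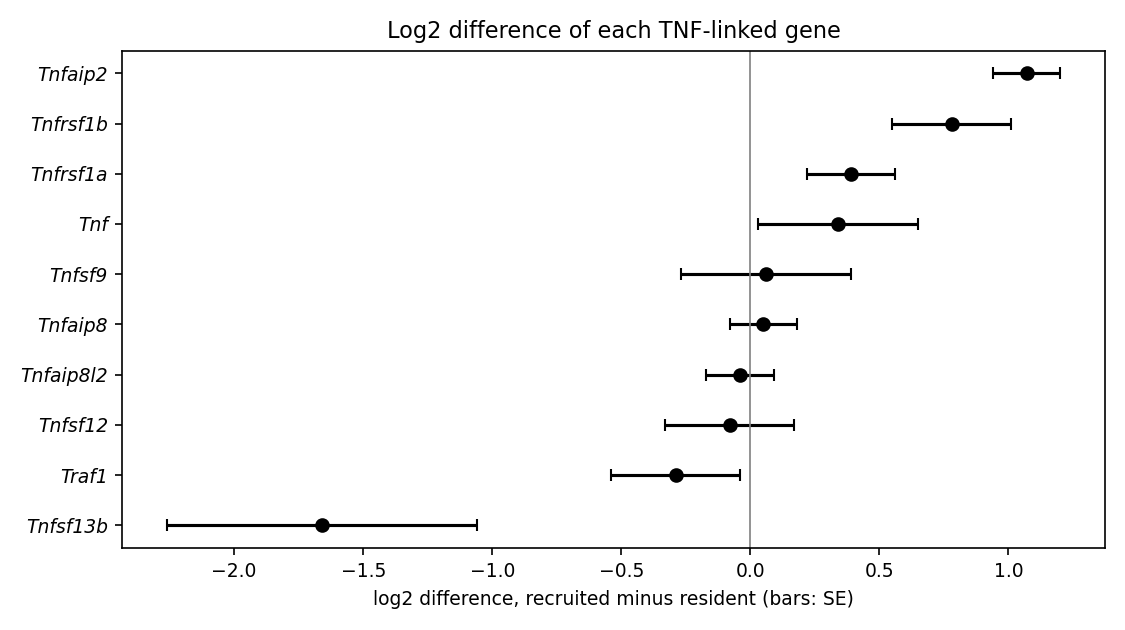
Log2 difference of each TNF-linked gene, recruited minus resident (x axis), with its standard error as bars, ordered from highest to lowest. Tnfaip2 stands at 1.07 and Tnfsf13b at -1.66, with Tnfsf9, Tnfaip8, Tnfaip8l2 and Tnfsf12 within 0.1 of 0.

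Tnfaip2 lies on chromosome 12 at 111442450 to 111455018 (mm10) with no other RefSeq gene in its span. Its promoter window and that of Tnf are shown because Tnfaip2 stood apart between the groups while Tnf, the cytokine it is named for, overlapped. They lie at chr12:111442411-111442710 on the plus strand and chr17:35201958-35202257 on the minus strand (GRCm38.p6), with the start site in capitals at base 251.
Tnfaip2 promoter: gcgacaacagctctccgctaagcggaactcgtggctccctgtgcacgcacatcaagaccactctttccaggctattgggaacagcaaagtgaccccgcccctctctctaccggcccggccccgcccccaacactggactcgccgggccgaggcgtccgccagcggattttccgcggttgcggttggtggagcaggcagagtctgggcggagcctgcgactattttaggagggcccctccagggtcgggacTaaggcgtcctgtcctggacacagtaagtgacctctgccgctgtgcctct
Tnf promoter: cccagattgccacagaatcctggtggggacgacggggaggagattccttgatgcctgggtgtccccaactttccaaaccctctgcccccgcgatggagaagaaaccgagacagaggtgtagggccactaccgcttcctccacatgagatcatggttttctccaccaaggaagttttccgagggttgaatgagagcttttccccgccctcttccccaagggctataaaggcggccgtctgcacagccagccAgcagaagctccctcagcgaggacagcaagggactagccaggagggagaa
Both windows were searched on both strands for AP-1 and for the kappaB consensus, the motif bound by NF-kappaB, which 4.51% of all 32851 windows hold. Neither motif's letters are in these 300 bases of Tnfaip2 or Tnf, and the kappaB consensus is in none of the 8 windows of the TNF-linked genes. The Tnfaip2 window begins at 111442411, close to the gene start at 111442450, so most of its bases lie inside the gene span. Bases outside the windows were not searched for Tnfaip2, Tnf or the other genes, and no looser form of either motif was tried. Sites elsewhere would therefore not be seen.

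Tnfaip8, an inhibitor of cell death that TNF induces, was read at 177, 164 and 144 CPM in recruited libraries and at 149, 159 and 161 CPM in resident libraries. Its resident values lay within the recruited range, with a log2 difference of 0.05 ± 0.13 (SE). No source used here says if reads were counted by strand, so those of the genes C030005K06Rik and Gm33335 within its span cannot be separated.

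Tnfaip8l2, also known as TIPE2, restrains Toll-like receptor and T cell receptor signalling. It was read at 125, 126 and 112 CPM in recruited libraries and at 128, 127 and 117 CPM in resident libraries. The groups overlapped and differed by -0.04 ± 0.13 on the log2 scale (SE). Per length it stood above Tnfaip8 in 6 of 6 libraries, with a mean ratio of 2.60 (log2 ratio 1.38 ± 0.11 SD, n = 6; exact two-sided sign-flip permutation test p = 0.0312, and 0.0312 adjusted over 4 pairs). This pair too was chosen with earlier results known, so its p is a description. The gene Lysmd1 overlaps the span of Tnfaip8l2 on chromosome 3.

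Ordered by FPKM, Tnfrsf1b stood first in both groups and Tnfsf13b last. In recruited macrophages Tnfaip2 was the second, at 162 ± 4.40 FPKM, above Tnfaip8l2 at 129.96 ± 7.47 FPKM in every library (SD, n = 3 each). In resident macrophages Tnfaip8l2 was the second, at 132 ± 9.96 FPKM, above Tnfaip2 at 77.2 ± 10.3 FPKM in every library (SD, n = 3 each). The order then ran Tnfrsf1a, Tnfaip8, Tnfsf9, Tnf, Tnfsf12, Traf1 and Tnfsf13b in both groups.

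The ranges of several neighbours in that order overlapped within a group. In recruited libraries the ranges of Tnfsf9 and Tnf overlapped, as did those of Tnfsf12 and Traf1. In resident libraries Tnfrsf1b overlapped Tnfaip8l2, Tnfrsf1a overlapped both Tnfaip2 and Tnfaip8, and Tnfsf12 overlapped both Tnf and Traf1. Library by library, Tnfaip2 was above Tnfrsf1a and Tnf above Tnfsf12 in all 3 resident libraries, while the other overlapping neighbours kept their order in 2 of 3. Among all tested genes Tnfrsf1b was at the 95.3 percentile of mean FPKM, Tnfaip8l2 at 92.8, Tnfaip2 at 92.1, Tnf at 68.2 and Tnfsf13b at 29.6.

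**Figure D3:**
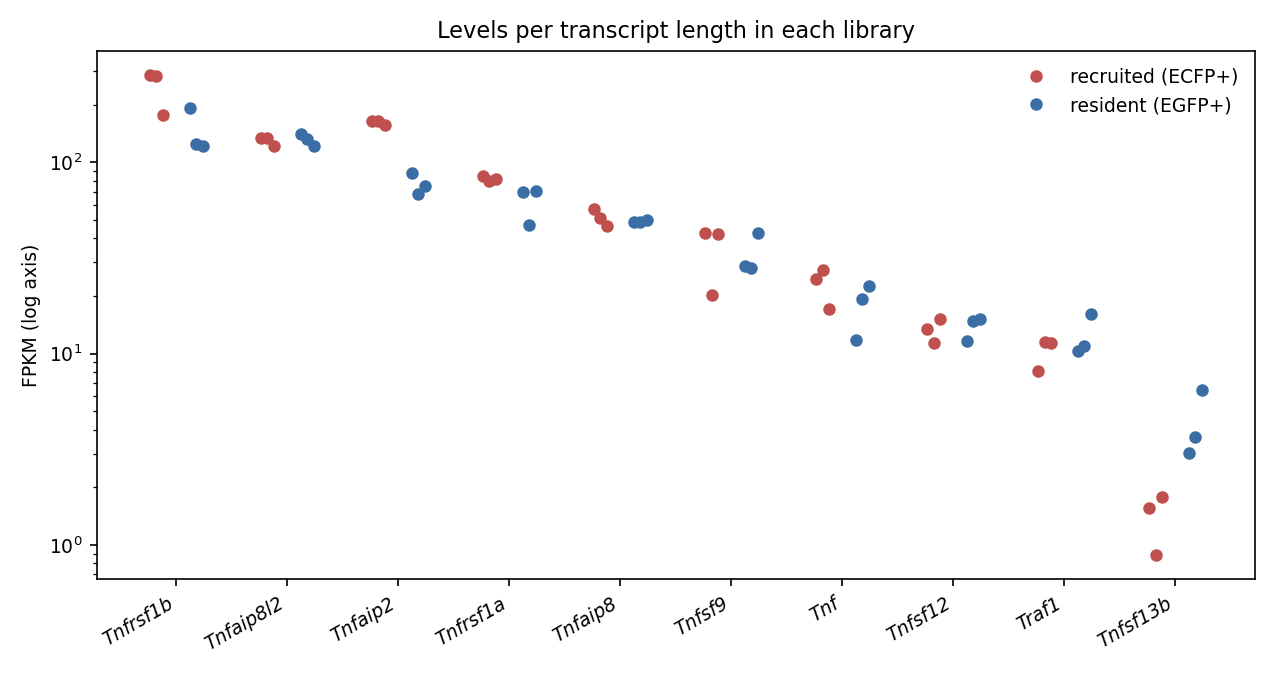
FPKM of each TNF-linked gene (y axis, log scale) in the 3 recruited and 3 resident libraries, ordered by the mean over all 6. Tnfrsf1b averages 249 FPKM in recruited and 146 FPKM in resident macrophages, and Tnfsf13b averages 1.40 FPKM in recruited and 4.39 FPKM in resident macrophages.

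The other pairs compared within libraries kept their order in all 6. They too were chosen with earlier results known, so their values are a description. Tnfsf12 stood above Tnfsf13b, with ratios of 8.15, 11.7 and 8.14 in recruited and 3.74, 3.94 and 2.32 in resident libraries. Its mean ratio was 5.46 (log2 ratio of Tnfsf13b over Tnfsf12 -2.45 ± 0.89 SD, n = 6; exact two-sided sign-flip permutation test p = 0.0312, and 0.0312 adjusted over 4 pairs). Tnfaip2 stood above Traf1, although TNF is known to induce both, with ratios of 20.0, 14.3 and 13.7 in recruited and 8.49, 6.16 and 4.63 in resident libraries. No test is given for that pair, since Tnfaip2 was selected on its values here. The ratio ranges of the 2 groups did not overlap for these pairs, which hold Tnfsf13b and Tnfaip2, so that gap is a description.

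The 5 genes whose pattern over the 6 libraries was closest to that of Tnfaip2 were Irf2bpl, Rrp12, Mfn1, Tex10 and Fyttd1. Likeness was the root mean square difference of centred log2 CPM, among 7688 other genes with a mean of at least 10 CPM, and it was 0.089 for Irf2bpl and 0.117 to 0.138 for the others. Irf2bpl, a transcriptional regulator, averaged 37.9 ± 0.983 CPM in recruited and 19.7 ± 2.21 CPM in resident libraries (SD, n = 3 each). Mfn1, a GTPase of mitochondrial fusion, averaged 25.6 ± 2.16 CPM in recruited and 13.1 ± 3.14 CPM in resident libraries (SD, n = 3 each). All 5 therefore had a log2 difference near that of Tnfaip2, from 0.86 to 0.98. None is among the TNF pathway genes listed, but those are only 103 of the 11354 tested genes, so their absence says little.

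The rest of the pathway was examined in 6 lists with 124 genes: other ligands and receptors of the TNF superfamily, receptor signalling, TNF and NF-kappaB response genes, regulators of TNF messenger decay and shedding, and other TNFAIP genes. Of the 103 with enough counts, 0 were called by edgeR at an adjusted p of 0.05 in either direction, beside 0.0617% of all tested genes called higher in recruited and 0.255% higher in resident cells. Without resident replicate 1, 7 pathway genes were called higher in recruited and 0 higher in resident cells, beside 2.19% and 2.81% of all genes in that fit. At an unadjusted p under 0.05 there were 24 higher in recruited and 3 higher in resident macrophages, beside 8.13% and 8.65% of all tested genes. DESeq2 called 5 of the 103 and limma-voom 1, beside 5.72% and 0.282% of all tested genes. Positive log2 differences numbered 61 and negative ones 42, with a median of 0.12.

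**Figure D4:**
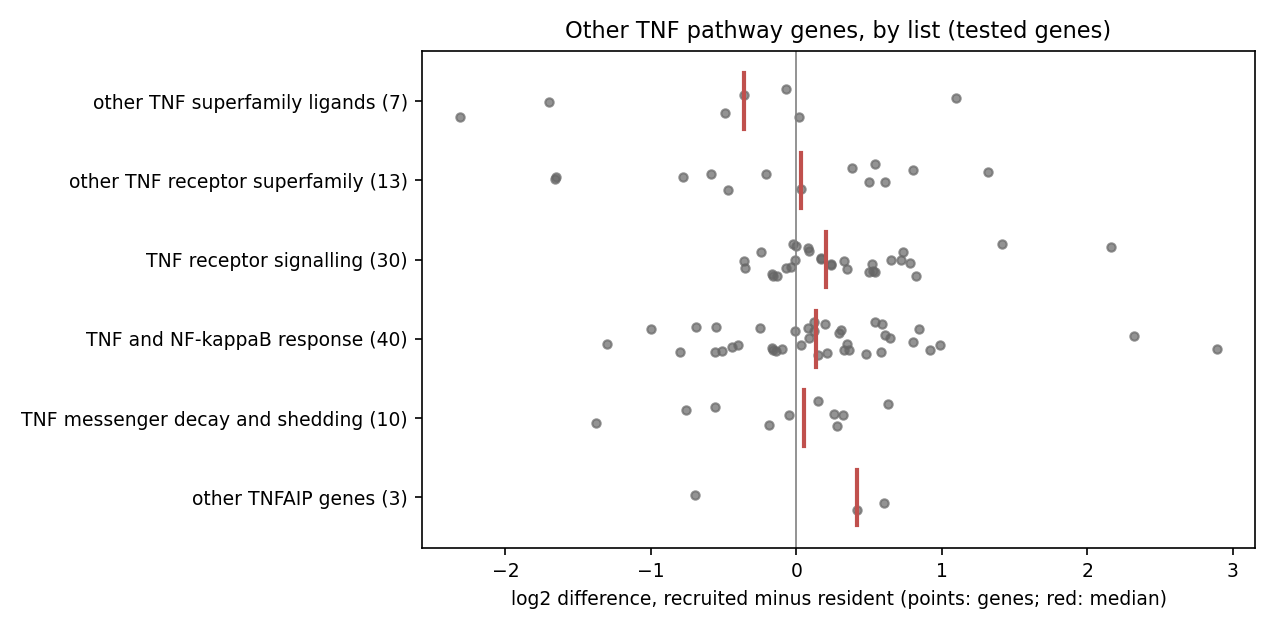
Log2 difference of each tested gene of the 6 pathway lists, recruited minus resident (x axis). Points are genes, spread vertically for display, red lines are list medians, and the number of tested genes is in brackets. The medians run from -0.36 for the other ligands, which turned to 1.03 in limma-voom, to 0.42 for the 3 other TNFAIP genes, which turned to -0.16 without resident replicate 3.

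Most other TNF superfamily ligands were hardly read. Of 14 genes 6, among them Fasl, Cd40lg and Lta, had no count in any library, and 7 could be tested, with a median of -0.36 that turned to 1.03 in limma-voom and to 0.28 on log2(FPKM + 0.1). Tnfsf13, the B cell factor APRIL, was the most abundant, at 68.0 ± 16.6 CPM in recruited and 87.1 ± 21.2 CPM in resident macrophages (SD, n = 3 each; edgeR adjusted p = 0.504), and it shares its span with Tnfsfm13. Tnfsf14, the ligand LIGHT, averaged 7.40 CPM in recruited and 3.45 CPM in resident libraries, with an edgeR adjusted p of 0.350. Tnfsf4, the ligand of OX40, averaged 0.793 CPM in recruited and 3.96 CPM in resident libraries, with an edgeR adjusted p of 0.489. The groups overlapped, with resident replicates 1 to 3 at 3.53, 0 and 8.35 CPM. Its log2 difference was -2.31 in edgeR and -0.58 in limma-voom.

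Of 26 other receptors 13 could be tested, with a median of 0.03 that ran from -0.22 without resident replicate 2 to 0.36 with a filter of 10 CPM. Tnfrsf21, the death receptor DR6, was read at 224 ± 16.3 CPM in recruited and 172 ± 52.2 CPM in resident macrophages (SD, n = 3 each; edgeR adjusted p = 0.432). Ltbr, the lymphotoxin beta receptor, was read at 68.3 ± 2.32 CPM in recruited and 46.8 ± 7.12 CPM in resident macrophages without overlap (log2 difference 0.54 ± 0.17 SE, edgeR adjusted p = 0.181). Fas, a death receptor, averaged 54.3 CPM in recruited and 38.3 CPM in resident libraries (edgeR adjusted p = 0.297). Tnfrsf12a, the TWEAK receptor Fn14, chosen after its values were seen, was read at 9.80 CPM in recruited and 13.5 CPM in resident libraries.

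The receptor signalling list had all 30 genes tested, 20 positive and 10 negative, with a median of 0.20. Recruited libraries lay wholly above resident ones for 8 of the 30 and wholly below for 0, beside 12.2% and 12.6% of all tested genes. Over the 6 lists together these patterns held for 22 and 7 of 103 genes. They held for 8 and 3 of 40 response genes and for 2 and 1 of 13 other receptors. The counts were 1 and 0 of 7 other ligands, 2 and 2 of 10 decay and shedding genes, and 1 and 1 of 3 other TNFAIP genes. Tank, a TRAF-binding regulator, was read at 178 ± 18.4 CPM in recruited and 123 ± 22.1 CPM in resident macrophages (SD, n = 3 each; log2 difference 0.53 ± 0.17 SE, edgeR adjusted p = 0.188). Casp8, the initiator caspase of receptor-driven death, differed by -0.04 ± 0.17, and Otulin, which removes linear ubiquitin chains, by -0.35 ± 0.19 on the log2 scale (edgeR adjusted p 0.944 and 0.403).

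The response list had all 40 genes tested, 25 positive and 15 negative, with a median of 0.13 that ran from 0.02 without resident replicate 1 to 0.44 without resident replicate 3. Nfkbia, which encodes the NF-kappaB inhibitor IkappaB-alpha, was read at 626 ± 85.6 CPM in recruited and 592 ± 145 CPM in resident macrophages (SD, n = 3 each; edgeR adjusted p = 0.881). Plaur, the urokinase receptor, was read at 616 ± 59.3 CPM in recruited and 496 ± 91.8 CPM in resident macrophages (SD, n = 3 each; edgeR adjusted p = 0.391). Saa3, an acute-phase gene, ran from 198 to 2135 CPM within the recruited group and stood at 22.6, 11.1 and 1988 CPM in resident replicates 1 to 3 (edgeR adjusted p = 0.851). Il1b, which encodes interleukin-1 beta and was chosen after its values were seen, was read at 359, 175 and 218 CPM in recruited libraries and at 69.1, 51.3 and 363 CPM in resident libraries. Resident replicate 3 was the highest of its group in both genes.

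Tnfaip3 and Clec4e came closest to the threshold within that list and were chosen after their values were seen. Tnfaip3, which encodes A20, a feedback inhibitor of TNF signalling, was read at 112, 118 and 111 CPM in recruited libraries and at 48.6, 56.1 and 67.3 CPM in resident libraries (log2 difference 0.99 ± 0.16 SE, edgeR adjusted p = 0.0638). Clec4e, the lectin receptor Mincle, was read at 1008, 831 and 785 CPM in recruited libraries and at 469, 498 and 496 CPM in resident libraries (log2 difference 0.84 ± 0.13 SE, edgeR adjusted p = 0.0577). The groups were apart for both genes. In DESeq2 both passed, with adjusted p of 3e-05 for Tnfaip3 and 5.66e-07 for Clec4e, and the other genes it called in the lists were Ikbkg, Sod2 and, higher in resident cells, Nfkb1.

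Regulators of TNF shedding and decay were mixed, with 5 positive and 5 negative among 10 tested. Adam17, the protease that sheds TNF and both of its receptors, was read at 356, 374 and 328 CPM in recruited libraries and at 308, 157 and 220.1 CPM in resident libraries (log2 difference 0.63 ± 0.23 SE, edgeR adjusted p = 0.230, and 0.0379 without resident replicate 1). Grn, which encodes progranulin, a binder of TNF receptors, was read at 2260 ± 29.8 CPM in recruited and 1865 ± 151 CPM in resident macrophages (SD, n = 3 each; edgeR adjusted p = 0.287). Of the other TNFAIP genes, Tnfaip1, an adaptor of ubiquitin ligases, was read at 69.0 CPM in recruited and 45.4 CPM in resident libraries (log2 difference 0.60 ± 0.19 SE, edgeR adjusted p = 0.175). The Tnfaip8 relative Tnfaip8l1 was read at 6.92 CPM in recruited and 11.3 CPM in resident libraries, without overlap (edgeR adjusted p = 0.409). Its relative Tnfaip8l3 was read at 2.79 CPM in recruited and 2.09 CPM in resident libraries (edgeR adjusted p = 0.916).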

How the data were processed

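RNA of sorted macrophages was made into cDNA with the SMART-Seq v4 kit and sequenced with paired ends in 2 runs, per the labels' protocols. The labels do not say which library was in which run. The authors deposited expected counts per gene, of which 3.92% of values were not whole, without normalization. They also deposited FPKM, scaled to transcript length and library size. The submitters' processing notes name RSEM 1.2.28, STAR 2.5.3a, Trimmomatic and FastQC, then edgeR and DESeq2, with build mm10. No source used here gives their annotation or how strand was treated.

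Of 24848 rows, 26 whose symbol had become a date were left out (0.121 to 0.138% of counts). Expected counts were rounded and fitted with edgeR 4.0.16 (R 4.3.3): TMM, filterByExpr, quasi-likelihood F test with robust estimation, group as the only term, and Benjamini-Hochberg adjustment over all 11354 tested genes at 0.05. Standard errors are the absolute log2 difference divided by the square root of F. The procedure was run on simulated data in which both groups had the same spread. That differs from the coefficients of variation of 0.613 in resident and 0.287 in recruited libraries, and unequal spread was not tested. Ratios within libraries used log2(FPKM + 0.1) and an exact sign-flip permutation test over the 6 libraries, for 4 pairs. Each library is a pool of 3 mice. No source used here says if the recruited and resident pools were drawn from separate animals. If animals were shared, the 6 libraries would not be independent in the edgeR fit or in the sign-flip tests. Counts are of reads after pre-amplification, without molecular identifiers.

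The genes, lists and pairs were chosen with earlier results of these data known. Named beside the 10 genes were the 3 most abundant tested genes of each pathway list by FPKM, any gene of the lists past the threshold (there was none), and the 5 genes most like Tnfaip2. Pathway genes named outside this rule were picked after seeing their values. Gene positions and promoters are from RefSeq (GRCm38.p6) and the Tnf transcript from GENCODE M21. Alternatives were other scalings, filters, tests (DESeq2 1.42.0, limma 3.58.1), pseudocounts, the replicate number as a block, and leaving out each library.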

Additional observations from a re-analysis of the deposited data

How the results depend on the processing

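The log2 difference of Tnfsf13b went from -1.66 to -1.13 in limma on log2(FPKM + 1). Tnfsf13b could not be fitted with the filter of 10 CPM in 3 libraries, which it fails. Under every alternative run, the log2 differences of the 10 TNF-linked genes kept their sign, except those near 0. Leaving out single libraries turned the sign of those near 0, with ranges of -0.02 to 0.13 for Tnfaip8, -0.07 to 0.02 for Tnfaip8l2, -0.10 to 0.34 for Tnfsf9 and -0.21 to 0.02 for Tnfsf12. Over all genes, calls higher in recruited macrophages numbered 7 in edgeR, 18 with no filter, 22 with the filter of 10 CPM and 278 in DESeq2. Calls higher in resident macrophages numbered 29, against 51 with the filter of 10 CPM, 372 in DESeq2 and 7 in limma on log2(FPKM + 0.1). Leaving out single libraries gave 0 to 254 calls higher in recruited and 0 to 326 higher in resident macrophages, the highest without resident replicate 1 and the lowest without recruited replicate 2. The cause was not tested. Of the pathway genes, those called higher in recruited cells numbered 2 with no filter, 2 with the filter of 10 CPM, 4 in DESeq2 and 1 in limma-voom, and 0 to 7 with single libraries left out (7 without resident replicate 1), while DESeq2 called 1 higher in resident cells and leaving out libraries 0 to 0. Tnfaip2 kept log2 differences of 1.04 to 1.08 in the other alternatives, with an adjusted p of 0.0808 and 0.14 in limma on log2(FPKM + 1) and log2(FPKM + 0.1).

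With the replicate number as a block, edgeR called 28 genes, against 36 without it, and Tnfaip2 had an adjusted p of 0.0502. Deviations of libraries with the same number correlated at 0.0155, 0.0626 and 0.0488. With 3 libraries in each group, such values cannot tell if the numbers pair the libraries. The numbers were left out of the main fit. The sign turned for Casp8 (0.05 without recruited replicate 1 and 0.09 without resident replicate 3, range -0.15 to 0.09), Nfkbia (-0.06 without resident replicate 2, range -0.06 to 0.30) and Tnfaip8l3 (-0.13 without recruited replicate 2 and -0.16 without resident replicate 3, range -0.16 to 1.14), none past the threshold. Of the list medians, those of receptor signalling and response genes kept their sign in all alternatives. That of the other ligands turned to 1.03 in limma-voom, 1.07 with the block and 0.28 on log2(FPKM + 0.1), that of the other receptors to -0.22 without resident replicate 2, -0.03 without recruited replicate 2 and just under 0 with upper-quartile factors, that of the other TNFAIP genes to -0.13 without recruited replicate 2 and -0.16 without resident replicate 3, and that of decay and shedding to -0.08 with the filter of 10 CPM and without recruited replicate 1 and to -0.03 without resident replicate 2. The response median was 0.02 to 0.44 with single libraries left out and up to 0.33 otherwise. The log2 ratio of Tnfrsf1b over Tnfrsf1a was 1.30 to 1.51 with single libraries left out, that of Tnfaip8l2 over Tnfaip8 1.35 to 1.41, that of Tnfsf13b over Tnfsf12 -2.70 to -2.23 and that of Tnfaip2 over Traf1 3.11 to 3.53, where 5 libraries cannot give a p under 0.0625. Tnfsf13b rests on 28 to 220 counts a library.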
